A study of Mus musculus with 2 samples.

Results

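Tenomodulin-positive cells are the connective tissue cells of the rib repair callus in which transcripts of *Tnmd*, a membrane glycoprotein gene that marks maturing tendon and ligament cells, were counted. They were chosen as cells with 200 or more detected genes, under 10% of their unique molecular identifiers (UMIs) on mitochondrial genes, at least 1% on *Col1a1*, *Col1a2* and *Col3a1* together, no UMI of *Ptprc* (leukocytes), *Pecam1* (endothelium) or *Myog* (differentiating muscle), and 2 or more UMIs of *Tnmd*. This gave 759 of 21259 cells (340 control and 419 *Smo* cKO cells), out of 10210 connective cells that meet every term but the last. *Tnmd* and the terms of the rule chose the members, so their levels are descriptions and no finding.

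The cells came from calluses taken at 4 days post injury (dpi) from mice with a 3 mm rib resection, with 1 library (10x Genomics) for each genotype. Control animals had the genotype *Sox9*:CreER;*R26*:tdT;*Smo* flox/+, the *Smo* cKO animals *Sox9*:CreER;*R26*:tdT;*Smo* flox/flox, where *Smo* encodes Smoothened, the membrane protein that passes the Hedgehog signal into the cell. The CreER recombinase, the tdTomato reporter, 1 floxed *Smo* allele and 3 tamoxifen injections (day −7 to day −5) were shared by both groups, and the animals of the study were 8 to 12 weeks old. Recombination was limited to cells with *Sox9*:CreER activity when tamoxifen was given. Dissection of the callus aimed to exclude most of the surrounding muscle, and the cells of 3 animals were pooled per genotype. The control library held 10747 cells and 105367110 UMIs (median 7743 per cell), and the *Smo* cKO library held 10512 cells and 112700220 UMIs (median 7702.5). With 1 library per genotype there is no replicate and no test. Intervals are 95% intervals that cover counting error only, and a difference between the libraries cannot be told apart from one between pools of animals or preparations.

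Tendons join muscle to bone through aligned type I collagen fibers. Their cells are specified by the transcription factors Scleraxis (*Scx*) and Mohawk (*Mkx*), and they lay down small leucine-rich proteoglycans such as fibromodulin (*Fmod*), which set fiber growth, and thrombospondins, which tie the matrix together. Tenomodulin appears downstream of Scleraxis as tendon cells mature. In the rib, intercostal muscle, periosteum and costal cartilage lie side by side, so several connective cell types can enter a callus.

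The libraries shared 613 cell barcodes. In 338 of these the control copy held under 5% of the UMIs of its *Smo* cKO partner, with a median of 1.68%, and in 148 the *Smo* cKO copy was the small one, with a median of 1.48%. No member was such a small copy, while 250 control and 121 *Smo* cKO connective cells were. Shared barcodes were carried by 21 control and 30 *Smo* cKO members, with none a member in both. Leaving all shared barcodes out gave 319 and 389 members, and the calls were made again without them.

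The members were deeply sampled cells. A control member had a median of 13476.5 UMIs and 3250.5 genes, and a *Smo* cKO member 14225 UMIs and 3335 genes, against 10128.5 and 12206 UMIs in the connective cells without a *Tnmd* UMI. The range over members was wide, from 1479 to 58960 UMIs among control and from 585 to 63741 UMIs among *Smo* cKO members. Of control members 90.6% had over 2000 genes, as did 90.2% of *Smo* cKO members, so the upper limit of 2000 genes that the study's methods set would remove most of them. *Tnmd* itself had a median of 3 UMIs in control members (90th percentile 12, highest 75) and 4 in *Smo* cKO members (90th percentile 18.2, highest 106).

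In the mouse genome (GRCm38) *Tnmd* lies at chrX:133850980-133865577 on the plus strand, *Fmod* at chr1:134037254-134048277 on the plus strand and *Thbs4* at chr13:92751590-92794818 on the minus strand. *Tnmd* chose the members, and *Fmod* and *Thbs4* rose with it at every step, as described below. The 250 bases before the 3 start sites (RefSeq, GRCm38.p6) are shown because Scleraxis is a basic helix-loop-helix factor, a class that binds the E-box CANNTG. The start site used for *Tnmd* lies inside the gene span given above, so its window overlaps that span. The motif reads the same on both strands, matches are in capitals, and the sequences are given 5′ to 3′ on the strand of the gene, at chrX:133850758-133851007 (plus), chr1:134037004-134037253 (plus) and chr13:92794819-92795068 (minus).
*Tnmd*: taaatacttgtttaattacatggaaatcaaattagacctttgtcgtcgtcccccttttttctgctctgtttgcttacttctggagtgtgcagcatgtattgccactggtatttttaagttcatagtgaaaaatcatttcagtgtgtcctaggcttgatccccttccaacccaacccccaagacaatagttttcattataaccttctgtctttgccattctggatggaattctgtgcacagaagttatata
*Fmod*: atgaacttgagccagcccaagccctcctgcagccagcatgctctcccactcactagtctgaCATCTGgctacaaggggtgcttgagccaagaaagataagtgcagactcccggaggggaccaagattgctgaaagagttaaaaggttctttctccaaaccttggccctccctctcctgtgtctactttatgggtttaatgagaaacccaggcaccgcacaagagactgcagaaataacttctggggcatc
*Thbs4*: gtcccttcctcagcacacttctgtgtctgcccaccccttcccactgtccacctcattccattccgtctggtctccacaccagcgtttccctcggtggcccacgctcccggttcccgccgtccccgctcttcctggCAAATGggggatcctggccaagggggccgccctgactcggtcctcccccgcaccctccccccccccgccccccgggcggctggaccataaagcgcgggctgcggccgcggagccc
The *Fmod* window held CATCTG and the *Thbs4* window CAAATG, 1 match each, while these letters did not occur in the *Tnmd* window. Of 32851 promoter windows of this length, 66.2% held at least 1 match, so a match is a description of the letters and not a binding site.

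Members made up a larger share of the connective cells in the *Smo* cKO library. In the control, 340 of 5944 connective cells were members (5.72%, with an exact Clopper-Pearson interval of 5.14 to 6.34). In the *Smo* cKO, 419 of 4266 were (9.82%, 8.94 to 10.8), which lay 4.10 percentage points higher (3.04 to 5.19 by Newcombe's method). Of all cells that passed the gene and mitochondrial limits the shares were 3.38% (3.04 to 3.75) and 4.41% (4.00 to 4.84). The gap between the libraries was thus wider against connective cells than against all kept cells, since connective cells were 5944 of 10057 kept control cells and 4266 of 9507 kept *Smo* cKO cells.

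**Figure D1:**
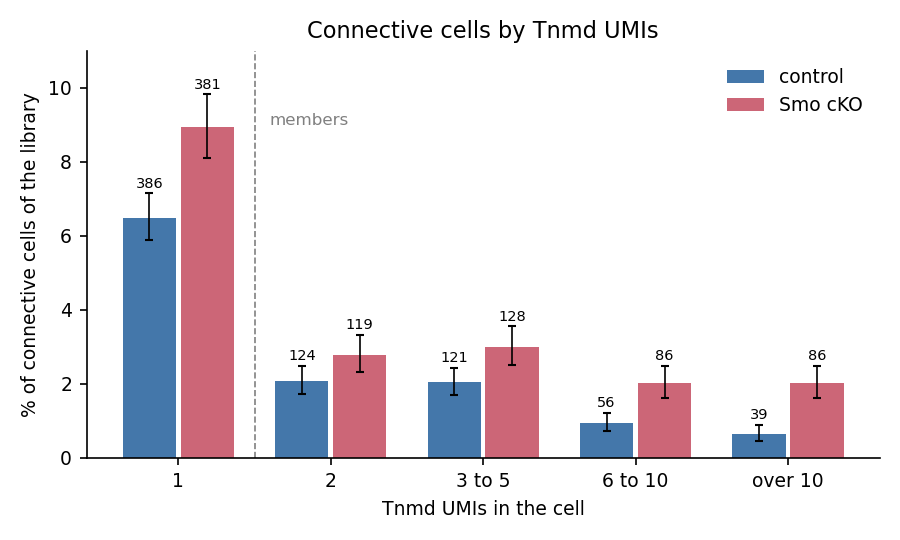
Percent of the connective cells of each library (y axis) with 1, 2, 3 to 5, 6 to 10 or over 10 *Tnmd* UMIs (x axis), with Clopper-Pearson 95% intervals and the number of cells above each bar; members lie right of the dashed line. The *Smo* cKO bar is the taller in each class, with 86 against 39 cells in the highest.

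In relative terms the gap widened in the cells with more *Tnmd* UMIs. Just outside the rule, 386 control and 381 *Smo* cKO connective cells had 1 *Tnmd* UMI, and just inside it 124 and 119 cells had 2. At over 10 UMIs there were 39 of 340 control members (11.5%, 8.29 to 15.3) and 86 of 419 *Smo* cKO members (20.5%, 16.8 to 24.7), and these few cells held 44.2% and 58.6% of all *Tnmd* UMIs of the members. With every connective cell thinned to 3000 UMIs, at least 1 *Tnmd* UMI was found in 5.85% of control cells (317 of 5422, 5.24 to 6.50) and 9.47% of those of the *Smo* cKO (368 of 3884, 8.57 to 10.4), with 522 and 382 shallower cells left out. Unthinned, the shares were 12.2% and 18.8%. In cells with a UMI of the leukocyte gene *Ptprc*, taken as background, the thinned shares were 3.19% (2.09 to 4.63) and 2.66% (1.77 to 3.82). Median depths before thinning were 7467 and 6130.5 UMIs, against 11392.5 and 13460.5 in the connective cells. At 3000 UMIs the connective shares lay above this background in both libraries. At 5000 UMIs the control intervals overlapped, with 7.34% (6.64 to 8.09) of connective cells and 6.03% (4.19 to 8.37) of cells with *Ptprc*, while the *Smo* cKO shares were 11.7% (10.7 to 12.8) and 4.70% (3.19 to 6.64). A single *Tnmd* UMI was not read as expression. The rule's own limit also had a background. At 3000 UMIs, 2 or more *Tnmd* UMIs were found in 105 of 5422 control connective cells and 9 of 816 with *Ptprc*. In the *Smo* cKO these were 157 of 3884 and 6 of 1054. Unthinned, 14 of 206 control cells with *Pecam1* had 2 or more (interval 3.77 to 11.1%), against 5.72% of connective cells. In the *Smo* cKO 10 of 243 did (1.99 to 7.44%), against 9.82%. In the control the share with *Pecam1* was thus not below that of members. Cells with *Ptprc* and 2 or more *Tnmd* UMIs had median shares of the 3 collagens of 2.88% and 1.98%. Those with *Ptprc* but no *Tnmd* had 0.169% and 0.142%. *Thbs4* was at 555 and 545 CPM against 49.5 and 66.6 CPM. With *Pecam1* the collagen shares were 2.94% and 2.45% against 0.597% and 0.171%. This background is therefore not one of leukocytes or endothelium alone, and the part of doublets was not tested.

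The label was checked against *Scx*, *Mkx* and *Fmod*, the tendon markers that the rule did not use. At 3000 UMIs per cell, *Scx* was found in 39.3% of 333 control and 39.8% of 412 *Smo* cKO members, *Fmod* in 40.8% and 39.6%, and *Mkx* in 4.80% and 4.85%. At least 1 of the 3 was found in 58.9% (53.4 to 64.2) and 58.0% of members, against 25.0% and 28.2% of connective cells without *Tnmd* and 11.3% and 9.11% of cells with *Ptprc*. None of the 3 was found in 41.1% and 42.0% of thinned members. Without thinning, *Scx* was present in 66.8% and 64.7% of members, *Fmod* in 63.8% and 59.7%, and any of the 3 in 84.1% and 79.5%. Tendon markers were therefore found more often in the members, while a part of the cells chosen by *Tnmd* alone showed none of them at this depth. The reverse view was also partial: of connective cells with 2 or more *Scx* UMIs, 164 of 1213 in the control (13.5%) and 216 of 1077 in the *Smo* cKO (20.1%) were members, and 937 and 746 had no *Tnmd* UMI.

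Most listed tendon genes had a higher level in the cells with the most *Tnmd* UMIs. Levels are given as CPM, the UMIs of a gene summed over a set of cells per 1e+06 UMIs of those cells. Of 9 tendon transcription factors, 8 had more CPM in cells with over 10 than with 0 *Tnmd* UMIs in both libraries, and of 26 tendon matrix genes 23 did. The gap was 2-fold or more for 4 and 12 of them. Only *Scx* among the factors and 7 of the matrix genes (*Fmod*, *Ogn*, *Aspn*, *Thbs4*, *Col11a1*, *Col12a1* and *Postn*) rose at every step in both libraries. Among the 2311 genes that reached 50 CPM in both libraries, in the members or in the cells without *Tnmd*, 39.5% were higher with over 10 *Tnmd* UMIs, 1.82% by 2-fold or more, and 1.08% rose at every step, against 17, 7 and 7 of the 20 matrix genes among them. *Thbs4*, thrombospondin-4 of the tendon matrix, stood at 148 CPM in control cells with 0 *Tnmd* UMIs, 274 with 1, 377 with 2, 622 with 3 to 5, 709 with 6 to 10 and 1576 with over 10. In the *Smo* cKO library the same classes gave 175, 258, 426, 578, 912 and 1448 CPM. *Scx* went from 88.6 to 406 CPM in the control and from 99.0 to 487 CPM in the *Smo* cKO between cells with 0 and with over 10 *Tnmd* UMIs. The median UMIs of the classes inside the rule stayed between 12649 and 16414.

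*Fmod* took a later and steeper course in the *Smo* cKO library. It stood at 122, 127, 219, 276, 391 and 706 CPM over the 6 control classes and at 82.8, 93.3, 115, 142, 256 and 798 CPM over the *Smo* cKO classes. Its log2 ratio between members with over 10 and with 2 *Tnmd* UMIs was 1.69 (1.50 to 1.88) in the control and 2.80 (2.59 to 3.01) in the *Smo* cKO. The same ratio was 1.28 (1.04 to 1.52) and 1.86 (1.65 to 2.07) for *Scx*, and 2.06 (1.93 to 2.20) and 1.77 (1.65 to 1.88) for *Thbs4*. The difference between the libraries in these slopes was not tested.

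**Figure D2:**
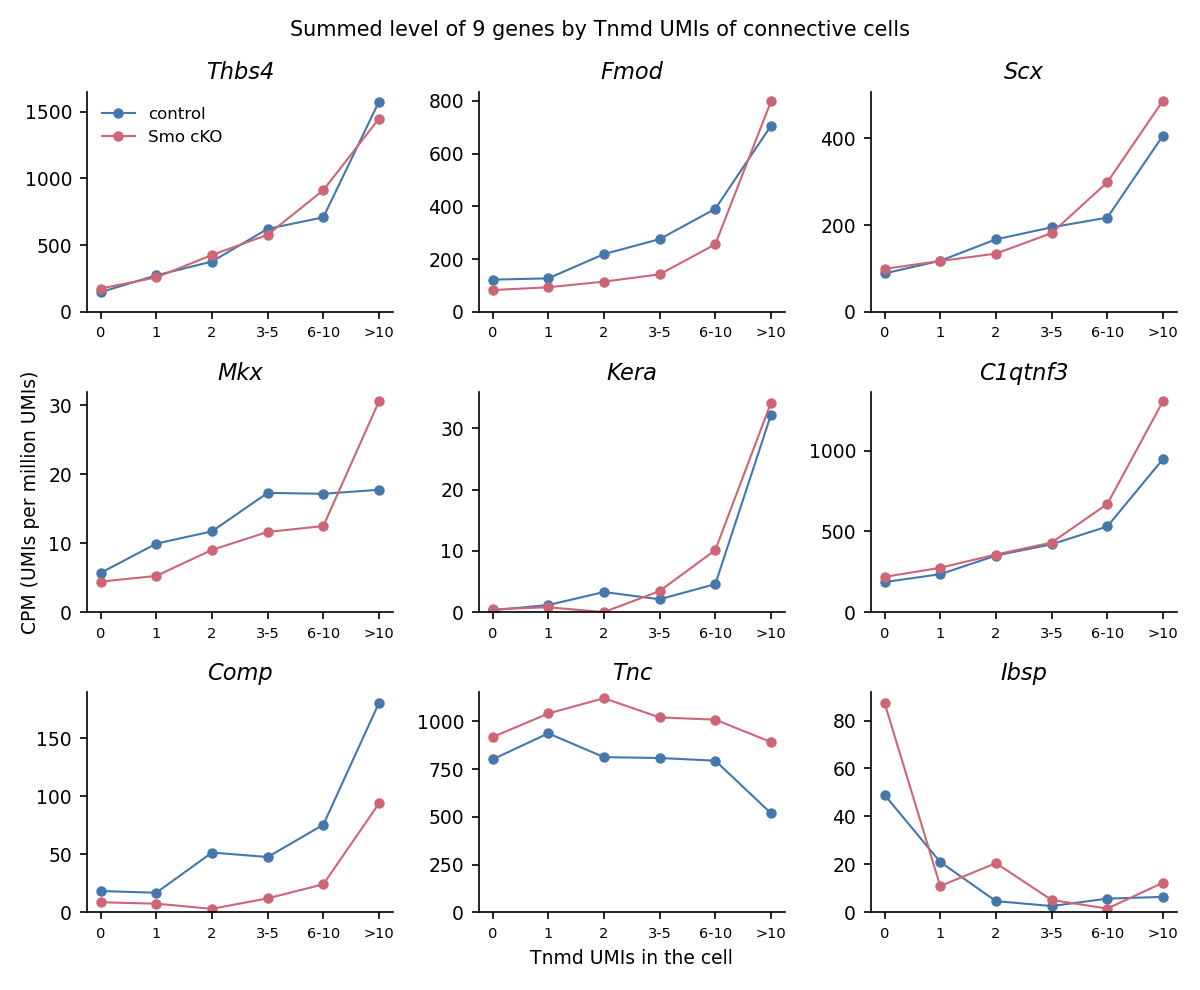
Summed level in CPM (y axes, each from 0) of 9 genes by the *Tnmd* UMIs of the connective cell (x axes) in the control (blue) and *Smo* cKO (red) library; the 4 classes from 2 UMIs upward are members. *Thbs4*, *Scx*, *Fmod*, *C1qtnf3*, *Kera* and *Comp* reach their highest level in the class over 10, whereas *Tnc* does not climb and *Ibsp* is highest without *Tnmd*.

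*Kera*, *Six2* and *Cilp2*, which had few UMIs, had their highest level where *Tnmd* was high. *Kera*, the proteoglycan keratocan, stood at 0.306 and 0.450 CPM in connective cells without *Tnmd* and at 32.2 and 34.2 CPM in members with over 10 *Tnmd* UMIs. *Six2*, a homeobox factor, went from 0.242 and 0.193 CPM to 11.3 and 15.3 CPM, and *Cilp2* from 0.161 and 0.257 CPM to 19.3 and 16.0 CPM. These rest on few cells, as *Kera* was found in 19 control and 28 *Smo* cKO members and *Cilp2* in 9 and 18. *Kera* was also found in 19 control and 17 *Smo* cKO connective cells without *Tnmd*, 0.364% and 0.490% of those cells against 5.59% and 6.68% of members. *Mkx* rose from 5.68 to 17.7 CPM in the control, where it stayed level from 3 *Tnmd* UMIs upward, and from 4.41 to 30.5 CPM in the *Smo* cKO. *Comp*, a cartilage and tendon matrix protein, went from 18.4 to 181 CPM in the control and from 8.65 to 93.8 CPM in the *Smo* cKO. *Tnc*, tenascin-C, did not follow *Tnmd*, with 519 CPM in the highest control class against 801 CPM without *Tnmd*, and *Col6a3*, a collagen VI chain, had 854 against 962 CPM. Of the 7 adventitial fibroblast genes, 6 had less CPM in the highest class than without *Tnmd* in both libraries (3 of the 3 that reached 50 CPM), as did 36.2% of the 2311 genes. *Pi16* and *Cd34* went from 17.4 and 66.0 CPM without *Tnmd* to 0 and 30.6 CPM in the highest control class, where no *Pi16* UMI was counted. *Dpt* (dermatopontin) was level there, at 247 and 245 CPM, and without the shared barcodes 5 of the 7 were lower and *Dpt* was not, while *Sema3c* was higher, at 8.56 and 32.2 CPM in the control and 10.3 and 15.3 CPM in the *Smo* cKO.

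Of the connective UMIs, control members held 7.53% and *Smo* cKO members 11.6%. The share of the gene's own UMIs was above this, with its interval, in both libraries for 5 of 9 tendon transcription factors and 18 of 26 tendon matrix genes, and for 16.1% of the 2311 genes (13 of the 20 matrix genes among them). Members held 57.4% and 72.3% of the *Kera* UMIs, 46.2% and 74.4% of *Six2*, 24.9% and 35.4% of *Thbs4*, 17.5% and 30.9% of *Fmod*, 16.9% and 30.1% of *Mkx*, and 15.9% and 24.5% of *Scx*. Other listed genes were not above the share of all UMIs in both libraries. *Col6a3* lay below it in both, at 6.84% and 10.9%. *Tnc*, at 7.21% and 12.6%, and *Egr1*, at 7.02% and 14.2%, lay below it in the control and above it in the *Smo* cKO. Most *Scx* transcripts of the connective cells, and in the control more than 50% of those of *Six2*, lay outside the members.

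Set against the connective cells without a *Tnmd* UMI (5218 control and 3466 *Smo* cKO cells, with the cells holding 1 UMI left out), 9 genes were at least 2-fold higher in the members of both libraries, which is 0.389% of the 2311 genes that reached 50 CPM, and 3 were at least 2-fold lower (0.13%). The 9 were *Thbs4*, *1500015O10Rik*, *Mest*, *Fmod*, *C1qtnf3*, *Scx*, *Ddah1*, *Prg4* and *Col11a1*, and the 3 were *Sfrp4*, *Col15a1* and *Gm12840*. The median log2 ratio over the 2311 genes was 0.04 for control and 0.01 for *Smo* cKO. All 12 calls were also made without the shared barcodes. They were made as well against the 3664 control and 2596 *Smo* cKO cells within the 10th to 90th percentile of member UMIs. Depth was not matched inside that range. With members taken at 1 or more *Tnmd* UMI, 3 of the 9 and 1 of the 3 were called, and at a limit of 100 CPM all 9 and 2 of the 3 were.

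*Thbs4* led with 648 CPM in control members against 148 CPM in the other cells (log2 ratio 2.13, 2.08 to 2.19) and 767 against 175 CPM in the *Smo* cKO (2.13, 2.08 to 2.18). *Scx* was at 211 against 88.6 CPM (1.25, 1.16 to 1.34) and 250 against 99.0 CPM (1.33, 1.25 to 1.41). *Fmod* was at 320 against 122 CPM (1.39, 1.31 to 1.46) and 284 against 82.8 CPM (1.78, 1.70 to 1.86). The libraries gave like ratios for *Thbs4* and *Scx*, whereas the *Fmod* ratio was larger in the *Smo* cKO, in which the other cells had less of it.

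The other genes called higher in members had varied roles. *Col11a1*, a collagen that starts fibrils, had log2 ratios of 1.33 and 1.07, and *Prg4*, lubricin, which coats gliding tendon and joint surfaces, 1.07 and 1.42. *C1qtnf3*, a secreted C1q and TNF related protein, had ratios of 1.34 and 1.52, and *Mest*, an imprinted gene active in mesenchyme, 1.83 and 1.56. *1500015O10Rik*, also named *Ecrg4* and encoding a secreted peptide precursor, had 1.60 and 1.63. *Ogn* (osteoglycin), *Fibin*, *Igfbp3*, *Gng11*, *Dtd1*, *Angptl1*, *Abi3bp*, *Fbn2* (fibrillin-2), *Ptn* (pleiotrophin), *Igsf10* and *Clec11a* completed the 20 highest and were not called, with the smaller of their 2 ratios between 0.73 and 0.98. In members with 5 or more *Tnmd* UMIs (115 and 197 cells), 33 genes were at least 2-fold higher in both libraries, the first 9 among them, with *Comp* (2.70 and 2.70), *Ogn* (1.55 and 1.26), *Aspn* (asporin, 1.28 and 1.08) and *Cilp* (1.10 and 1.07) added from the matrix. *Sfrp4*, a secreted Wnt antagonist, was lower in members by log2 ratios of −1.46 and −1.99, and *Col15a1*, a basement membrane collagen, by −1.62 and −1.60.

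**Figure D3:**
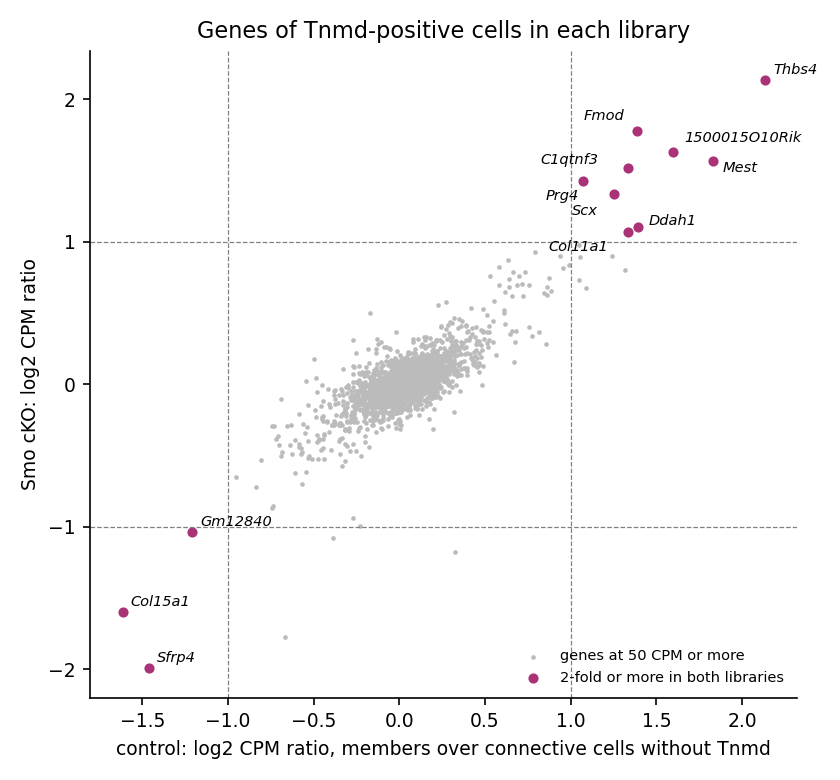
Log2 CPM ratio of members over connective cells without *Tnmd* in the control (x axis) and the *Smo* cKO library (y axis), 1 point per gene at 50 CPM or more, with dashed lines at 2-fold. The 12 colored and named genes pass 2-fold in both libraries, with *Thbs4* at 2.13 on both axes.

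By role, the transcription factors were uneven. Of the 9 on the list, which holds *Scx*, *Mkx*, *Egr1* and *Six2*, 2 reached 50 CPM and 1, *Scx*, was called. *Mkx* lay below the limit but had 15.2 against 5.68 CPM in the control (log2 ratio 1.42) and 14.8 against 4.41 CPM in the *Smo* cKO (1.74). *Egr1*, an early response factor also used in tendon repair, was not set apart, with ratios of −0.13 and 0.32. Of 26 tendon matrix genes 20 were tested and 3 called higher (*Fmod*, *Thbs4* and *Col11a1*), with medians of 0.17 and 0.19. The fibrillar collagens *Col5a1* and *Col5a2* had ratios from 0.04 to 0.09, and the collagen VI genes from −0.15 to 0.11. Of 20 genes for collagen processing, such as the lysyl oxidases and the collagen chaperone gene *Serpinh1*, 18 were tested and none was called in either direction. Since 0.389% and 0.13% of all tested genes were called, this count is near the background and is not a result about the list, nor are those of the signal and mechanical response lists. *Pcolce*, an enhancer of procollagen C-proteinase, had the highest ratios among them at 0.45 and 0.28.

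Among 23 genes of the TGF-β, BMP and FGF signals, 8 were tested and none was called. *Tgfb3* had 104 against 56.4 CPM in the control (log2 ratio 0.88) and 132 against 83.8 CPM in the *Smo* cKO (0.65), while *Tgfb1* had −0.32 and −0.42. *Ltbp2*, a latent TGF-β binding protein gene, had 0.64 and 0.74. *Gdf7* had no UMI in the members of either library. Of 12 mechanical response genes, 7 were tested and none was called, with *Cyr61* at 0.86 and 0.28 and *Tagln* at 0.56 and 0.20.

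Neighboring cell types were represented unevenly. Of the 5 tendon sheath genes, *Prg4* was higher in members, while *Tppp3* (−0.57 and −0.70), *Pdgfra* (−0.32 and −0.54), *Cd55* and *Clu* had negative ratios. Of 11 cartilage and enthesis genes, 4 had more CPM in members in both libraries (*Sox9*, *Acan*, *Col9a1* and *Matn3*) and 4 had less (*Sox5*, *Cnmd*, *Col10a1* and *Hapln1*). *Acan* (aggrecan), the one tested, had 103 against 71.6 CPM (0.53) and 73.8 against 43.6 CPM (0.76), *Matn3* had ratios of 2.15 and 1.78 at no more than 8.30 CPM, *Sox5*, a partner factor of Sox9, had −0.66 and −0.72 at no more than 7.04 CPM, and *Col2a1* was near 0 with 1.98 and 0.859 CPM. *Matn1* and *Col10a1* had no UMI in members of either library. The 7 genes of adventitial fibroblasts summed to 384 against 520 CPM in the control and 555 against 622 CPM in the *Smo* cKO, log2 ratios of −0.44 and −0.16. *Dpt* had the highest level among them, with ratios of −0.20 and 0.07, and *Ly6a* had −0.71 and −0.36. The 13 osteoblast genes summed to 504 against 521 CPM in the control (−0.05, −0.10 to 0.01) and 339 against 780 CPM in the *Smo* cKO (−1.20, −1.26 to −1.14). Most of this was *Spp1* (osteopontin), with 392 against 313 CPM and 229 against 516 CPM. Without the 1 control member that held the most *Spp1* UMIs, control members had 304 CPM, so the direction in the control rests on that cell. The list sum without this cell was not computed. Of the 2 genes tested, *Spp1* and *Runx2* (−0.18 and −0.14), neither was called. This is near the 0.389% and 0.13% called among all genes tested and is not a result about the list. In both libraries 9 of the 13 had less CPM in members than in the other cells, as had 29.6% of the 2311 genes, and 1 of the 13, *Dlx5*, had more, as had 43.1%. The widest gaps among those with UMIs in both libraries were in 3 genes of mature osteoblasts that lay below the limit in members, with *Bglap* (osteocalcin) at 0.902 against 27.7 CPM in the control and 1.29 against 33.1 CPM in the *Smo* cKO, its close copy *Bglap2*, with which it can share reads, at 0.722 against 15.6 and 2.29 against 25.8 CPM, and *Ibsp* at 4.33 against 49.0 and 10.3 against 87.4 CPM. *Alpl*, *Pth1r* and *Dlx5* had more CPM in cells with over 10 than with 0 *Tnmd* UMIs in both libraries, and *Dlx5* had 6.44 against 2.05 and 6.55 against 2.38 CPM there, from 4 and 9 UMIs in the highest class.

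**Figure D4:**
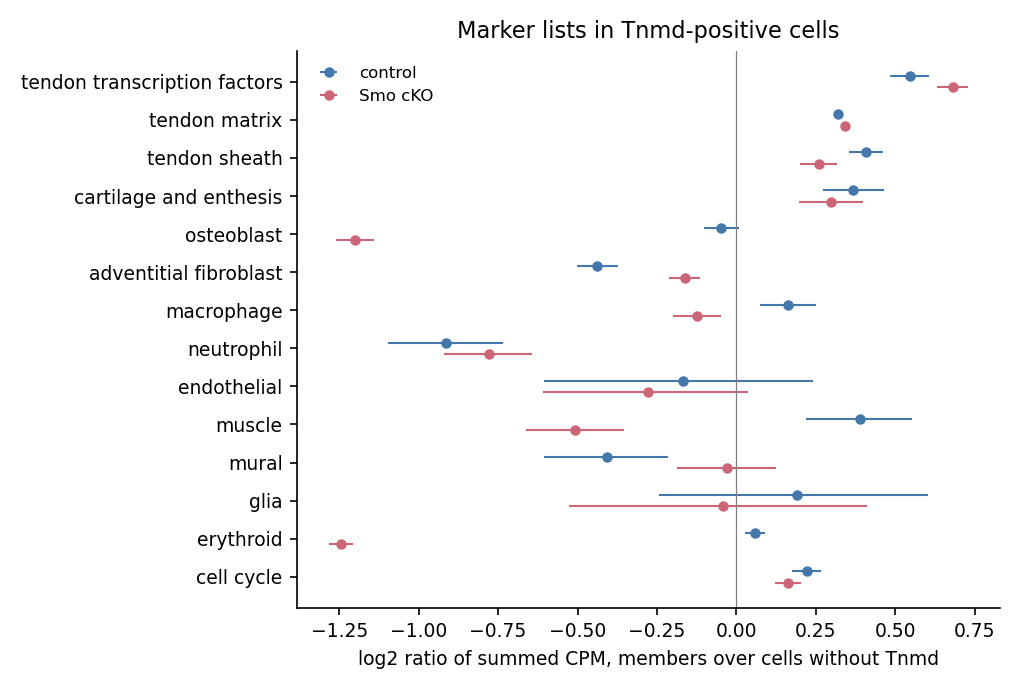
Log2 ratio of the summed CPM of each marker list, members over connective cells without *Tnmd* (x axis), with Poisson 95% intervals, in the control (blue) and *Smo* cKO (red) library. The tendon transcription factor list lies at 0.55 and 0.68, the osteoblast list at −0.05 and −1.20 and the erythroid list at 0.06 and −1.24, while the muscle list (0.39 and −0.51) and the macrophage list (0.16 and −0.12) change sign between the libraries.

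Transcripts of cell types that the rule should leave out were also counted in members. Summed over the 9 macrophage genes there were 203 CPM in control and 228 CPM in *Smo* cKO members, against 181 and 249 CPM in the other connective cells, with *Lyz2* the highest (69.5 and 96.7 CPM) and none of the 9 at 0. The 9 muscle genes summed to 60.4 and 54.6 CPM (*Des*, 31.2 and 27.6 CPM), against 46.2 and 77.5 CPM, log2 ratios of 0.39 (0.22 to 0.55) in the control and −0.51 (−0.66 to −0.35) in the *Smo* cKO. The 6 neutrophil genes summed to 47.8 and 66.5 CPM (highest *S100a8*, 18.8 and 29.5 CPM), against 90.0 and 114 CPM in the other cells, the 6 endothelial genes to 9.38 and 13.0 CPM (*Egfl7*, 5.77 and 7.31 CPM), the 7 mural genes to 41.9 and 56.0 CPM (highest *Cspg4* at 21.1 CPM in control and *Rgs5* at 28.1 CPM in *Smo* cKO members) and the 5 glial genes to 9.56 and 6.45 CPM (*S100b*, 7.76 and 5.16 CPM), with *Sox10* at 0 in both. Hemoglobin and other erythroid transcripts were the largest foreign signal, at 1633 CPM in control members and 895 CPM in *Smo* cKO members, against 1567 and 2120 CPM in the other connective cells. One control member held 31.8% of the *Hbb-bs* UMIs of all control members, and 2 held over 50%. In the *Smo* cKO 1 member held 33.4%, and 10 held over 50%. The part of free RNA or of doublets in these values was not tested.

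None of the 5 cell cycle genes tested was called, which is near the 0.389% and 0.13% called among all genes tested and is not a result about the list. The 15 cell cycle genes summed to 778 CPM in control members against 668 CPM in the other cells, and to 821 against 734 CPM in the *Smo* cKO, log2 ratios of 0.22 (0.18 to 0.27) and 0.16 (0.12 to 0.20). Of the 15, 11 had more CPM in members in both libraries, as had 43.1% of the 2311 genes. All 5 that were tested were among the 11. Without the shared barcodes 8 of the 15 did, as did 42.2% of the genes tested there. The list did not follow *Tnmd* upward. With over 10 against 0 *Tnmd* UMIs, 3 of the 15 had more CPM in both libraries and 2 (*Mki67* and *Mcm2*) had less. Of the 2311 genes 39.5% had more and 36.2% less. Of the 5 tested, 1 had more. *Hist1h2ap*, a histone gene outside this list, had log2 ratios of members over other cells of 0.32 and −0.19.

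Between the genotypes, 16 genes were at least 2-fold higher in *Smo* cKO than in control members, which is 0.644% of the 2486 genes that reached 50 CPM in either library, and 5 were at least 2-fold lower (0.201%). The connective cells without *Tnmd* gave 17 higher and 5 lower of 2453 genes. Of the genes called in members, 12 of the 16 and 4 of the 5 were also 2-fold or more apart there in the same direction. The 50 CPM limit was not applied to this overlap. *Comp*, among the 4, had 18.4 and 8.65 CPM in the other cells and was thus not a call there. The median log2 ratio over the tested genes was 0.04 in members and 0.07 in the other cells. Without the shared barcodes 18 genes were higher and 5 lower, 15 of the 16 and all 5 among them. Of 21 tendon matrix genes tested 1 was called lower (*Comp*) and none higher, with a median log2 ratio of 0.03. As *Comp* reached 50 CPM only in the control, where it was higher, this count is no support. Of the 2 tendon transcription factors tested 1, *Egr1*, was called higher. The ratio was 0.24 (0.13 to 0.35) for *Scx*, 0.24 (0.18 to 0.30) for *Thbs4*, −0.17 (−0.26 to −0.08) for *Fmod* and −0.04 for *Mkx*, which lay below the limit. *Prg4* had −0.65.

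Listed interferon-stimulated genes had more CPM in *Smo* cKO members, 19 of 19, as had 58.2% of the 2486 genes tested. This list is not independent evidence, as it was drawn up once *Isg15* was known to differ between these libraries. The 5 that reached 50 CPM in either library were called, against 0.644% of all genes tested, but 3 of them (*Isg15*, *Cxcl10* and *Lgals3bp*) reached it only in the *Smo* cKO, so that this count is no support. *Isg15*, a ubiquitin-like modifier, went from 23.6 CPM in control to 192 CPM in *Smo* cKO members (log2 ratio 3.02, 2.76 to 3.29), and from 8.53% to 52.7% of cells. *Ifi27l2a* went from 73.8 to 338 CPM (2.20), *Bst2* (tetherin) from 82.3 to 322 CPM (1.97), the chemokine gene *Cxcl10* from 30.5 to 103 CPM (1.76) and *Lgals3bp* from 24.0 to 73.6 CPM (1.62). Summed over the list, the level went from 290 to 1361 CPM in members (2.23, 2.15 to 2.31) and by a log2 ratio of 2.46 in the other connective cells. The ratio was no larger in members than in the cells around them.

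The other genes called higher were named by the rule on the size of the ratio, and 2 of them are also listed, *Egr1* among the tendon transcription factors and *Ly6a* among the adventitial fibroblast genes. *B2m*, the light chain of the MHC class I molecules, was at 461 and 1011 CPM (1.13), *H2-T22*, a class I gene of the same family of molecules, at 33.4 and 69.9 CPM (1.07) and *Psmb8*, an immunoproteasome subunit, at 29.4 and 68.5 CPM (1.22). *Ly6a* (1.41) and *Ly6e* (1.31), genes of small anchored surface proteins, were higher as well, and so were *Ndufa4l2* (1.55), *Ass1* (1.04), the pseudogene *Gm10036* (1.77) and the immediate early or stress genes *Ier2* (1.22), *Egr1* (1.06) and *Hspa1a* (1.10). In the other connective cells *Ier2*, *Egr1* and *Ass1* had ratios of 0.75, 0.61 and 0.73, under the 2-fold line.

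Of the 7 genes on the list of acute phase genes and *Cxcl12*, 4 were tested and 3 called lower in *Smo* cKO members, and 1 of the 7 had a higher CPM there. The background was 0.201% of the 2486 genes, but the 3 reached 50 CPM only in the control and the list was drawn up with these differences known, so that this count is no support. *Hp* (haptoglobin) went from 78.3 to 11.3 CPM (log2 ratio −2.79, −3.16 to −2.44), *Saa3* (serum amyloid A3) from 130 to 21.2 CPM (−2.62, −2.88 to −2.36) and *C3* (complement) from 74.5 to 15.8 CPM (−2.24, −2.56 to −1.93). The other connective cells had −2.38, −1.51 and −1.74. *Saa3* rested on few cells, since 5 control members held over 50% of its UMIs, while *Hp* was found in 114 control and 43 *Smo* cKO members. *Cxcl12*, a stromal chemokine, was the fourth tested and had 144 and 104 CPM (−0.48) in members and −0.69 in the other cells. Below the limit, *Serpina3n*, a serine protease inhibitor gene, had 27.8 and 3.87 CPM, *Steap4* had 21.3 and 10.7 CPM, and *Lcn2* (lipocalin-2), the one that was higher, had 4.33 and 6.88 CPM.

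*Comp* was the tendon matrix gene called between the genotypes at the limit of 50 CPM, at 68.4 CPM in control and 27.8 CPM in *Smo* cKO members (log2 ratio −1.30, −1.56 to −1.05), against −1.09 in the other connective cells. *Comp* reached that limit only in the control, where it was higher, so the call is no support. It was found in 34.7% of control and 18.4% of *Smo* cKO members. *Chad* (chondroadherin), far below the limit, had a larger ratio in the other direction, at 2.71 and 8.45 CPM (1.64), from 15 and 59 UMIs. *Hist1h2ap* was the fifth gene called lower (−1.26), but its ratio was 0.13 in members with 5 or more *Tnmd* UMIs. *Ank*, *C1s1* and *Arf5* had ratios between −0.93 and −0.77, short of 2-fold. *Spp1* had 392 CPM in control and 229 CPM in *Smo* cKO members (−0.78, −0.87 to −0.69), whereas the other cells had 0.72. A single control member held 23.0% of the *Spp1* UMIs of control members. Without this cell the member ratio was −0.41 (−0.51 to −0.31), and without the shared barcodes the member ratio was −0.55.

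**Figure D5:**
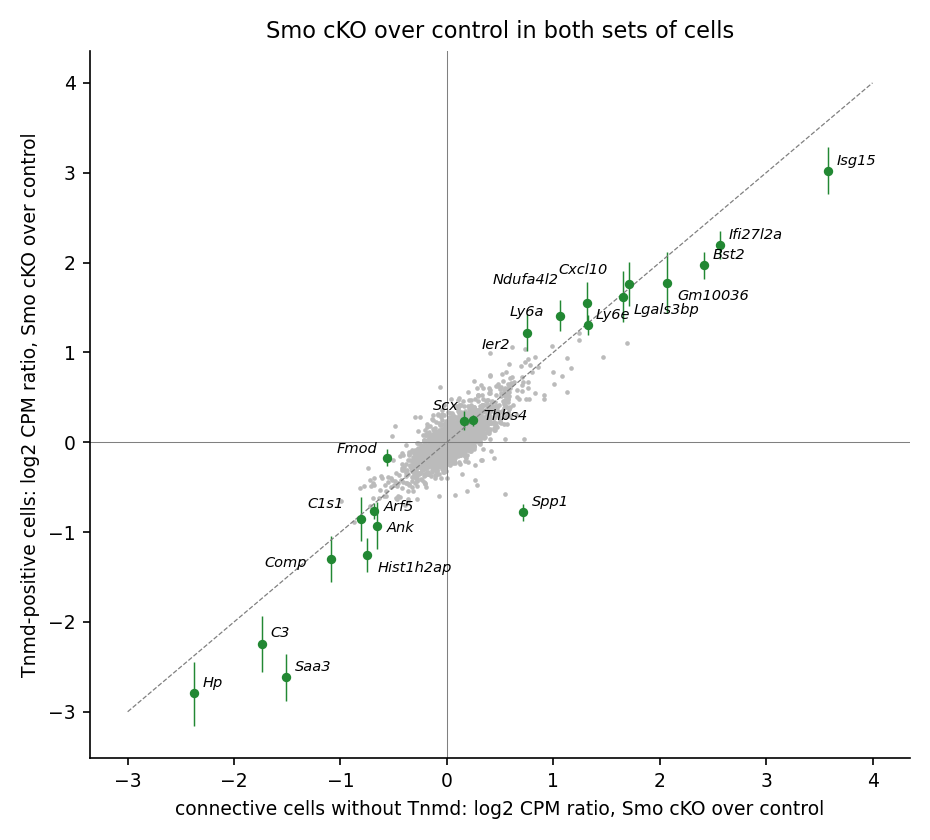
Log2 CPM ratio of *Smo* cKO over control in the connective cells without *Tnmd* (x axis) and in members (y axis), 1 point per gene at 50 CPM or more in the members of either library; the dashed line marks equal ratios and bars are Poisson 95% intervals of the member ratio. Most named genes lie near the line, from *Hp* at −2.79 to *Isg15* at 3.02, and *Spp1* lies apart at −0.78 against 0.72.

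The targeted gene was counted at a low level. *Smo* had 21.1 CPM in control and 15.8 CPM in *Smo* cKO members (log2 ratio −0.42, −0.81 to −0.03) and a ratio of −0.65 in the other connective cells. Whether the counted part of the transcript lies in the segment removed by the recombinase is not given in the sources used here, so these counts do not check the deletion. The tdTomato reporter was found in 5 of 340 control members (1.47%, 0.479 to 3.40) and 11 of 419 *Smo* cKO members (2.63%, 1.32 to 4.65). In connective cells without *Tnmd* it was found in 0.728% (0.516 to 0.998) and 2.11% (1.65 to 2.64), intervals that overlap those of the members. Their median depths were 10128.5 and 12206 UMIs. In cells with *Ptprc* it was found in 0.149% and 0.712%, at median depths of 3812 and 4167 UMIs against 13476.5 and 14225 in members. At this depth the members that had recombined could not be told from those that had not.

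Hedgehog pathway genes were low in members and few reached the limit. Of 14 genes, only *Gas1*, a Hedgehog co-receptor gene, passed 50 CPM, with 82.3 CPM in control and 62.9 CPM in *Smo* cKO members (−0.39, −0.58 to −0.20). *Ptch1*, the receptor and a target gene, had 13.3 and 10.5 CPM, *Gli1* 0.541 and 0.859 CPM, and *Shh* and *Ihh* no UMI in members of either library, which at 5543235 and 6981232 summed UMIs allows up to 3 UMIs.

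Variation among the members was measured gene by gene at a fixed depth. With each member thinned to 3000 UMIs, 89 of 2821 genes found in at least 10% of the members of both libraries had a variance of at least 2 times their mean in both, where counting alone gives 1, and the median was 1.05 for control and 1.06 for *Smo* cKO. The count depends on the depth, as 164 genes passed at 5000 UMIs. *Malat1*, an abundant nuclear RNA, led, followed by *Eln* (elastin), *Ccl2* (a monocyte chemokine), the metallothioneins *Mt2* and *Mt1*, *Apoe*, *Lyz2*, *Actb*, *Mgp* (matrix Gla protein) and *Tmsb4x*. *Eln* was found in 36.0% of control and 35.9% of *Smo* cKO thinned members, with up to 55 and 69 UMIs in a thinned cell. Without thinning, 18 and 19 members held over 50% of its UMIs. *Lyz2*, a macrophage gene, was found in 11.4% and 17.2% of thinned members. *Ccl2* was found in 82.9% and 91.9% of unthinned members, and 37 and 56 of them held over 50% of its UMIs.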

How the data were processed

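The matrices of both libraries were used. Per the labels, the authors aligned reads to mm10 with Cell Ranger 3.0.2 and deposited raw UMI counts per gene and cell barcode, without normalization. UMIs were summed per library over the members and over connective cells without *Tnmd*, and divided by their total to give CPM. Genes were called at 2-fold or more among those at 50 CPM or more. Ratios have exact Poisson intervals. No doublet caller was run and no upper gene limit was set. Thinning drew UMIs without replacement. The members and gene lists were chosen with earlier results of these data known, and 1 listed gene was absent from the features. The genes named are the 20 highest in members, the 10 highest and 10 lowest between genotypes, the 10 most variable and those on the lists, found in 10% of members, without mitochondrial, ribosomal protein, hemoglobin, immunoglobulin and sex genes. Python 3.11.15, numpy 2.4.6, scipy 1.17.1, pandas 2.3.3 and matplotlib 3.10.9 were used. The call of members over other cells was run on simulated sums with counting error alone. Variation between cells or libraries was not simulated, and the calls between genotypes were not covered. Coordinates are GRCm38. The other cells of the callus were not analyzed here, and some genes that these rules select are not reported here.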

Additional observations from a re-analysis of the deposited data

Results flagged for a closer look

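*Spp1* stood out because it went in opposite directions in the members and the other connective cells. Its log2 ratio of *Smo* cKO over control was −0.78 in members and 0.72 in connective cells without *Tnmd*. *Pf4* did the same, with −0.57 in members and 0.55 in the other cells. Neither difference was tested. A few cells weigh on both values, since 6 control members held over 50% of the *Spp1* UMIs of control members and 1 control member held 40.0% of their *Pf4* UMIs. Without the control member that held the most UMIs of the gene, an alternative added after the data were seen, the member ratio was 0.16 (−0.12 to 0.45) for *Pf4*, so its opposite direction rests on that cell. For *Spp1* it was −0.41 (−0.51 to −0.31).

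Cells with 2 or more *Tnmd* UMIs that the rule left out are a signal in cells outside the comparisons. These were 82 control and 165 *Smo* cKO cells, with median depths of 18264 and 21479 UMIs. A *Myog* UMI was found in 35 and 104 of them, a *Ptprc* UMI in 27 and 27, and a *Pecam1* UMI in 14 and 10. Of all cells with *Ptprc* these were 27 of 1343 in the control (2.01%, 1.33 to 2.91) and 27 of 1544 in the *Smo* cKO (1.75%, 1.16 to 2.53). Of those with *Pecam1* they were 14 of 206 (interval 3.77 to 11.1%) and 10 of 243 (1.99 to 7.44%). The connective shares were 5.72% and 9.82%, so the control share with *Pecam1* was not below that of connective cells. Of all kept cells with a *Myog* UMI, 35 of 584 in the control (5.99%, 4.21 to 8.24) and 104 of 1348 in the *Smo* cKO (7.72%, 6.35 to 9.27) had 2 or more *Tnmd* UMIs. Those cells had 187 and 213 CPM of *Scx* and 587 and 559 CPM of *Thbs4*, against 104 and 102 CPM of *Scx* and 97.2 and 88.6 CPM of *Thbs4* in cells with *Myog* but no *Tnmd*. Their *Myog* level was lower, at 216 and 268 CPM against 618 and 730 CPM, and their median depth was 25486 and 25200 UMIs against 12991 and 13596. The part of doublets in these cells was not tested.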

How the results depend on the processing

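No paired analysis was possible because each genotype has 1 library. The share of members was higher in the *Smo* cKO under all settings tried. The difference in percentage points was 6.54 at 1 or more *Tnmd* UMI, 2.68 at 5 or more, 2.83 at 2000 or fewer genes (32 and 41 members) and 2.36 without the collagen term. The thinned detection difference of 3.63 points became 2.36 at 1000 UMIs and 6.54 without thinning. Unthinned co-detection gave 66.8% and 64.7% for *Scx*, 63.8% and 59.7% for *Fmod* and 84.1% and 79.5% for any of the 3 markers. At 5000 UMIs 164 genes were variable instead of 89. Against the 9 genes higher in members, 3 were found at 1 or more *Tnmd* UMI, 33 at 5 or more, 16 with cells weighted equally and 16 at 20 CPM. Against the 3 lower, these were 2 at 1 or more *Tnmd* UMI, 7 at 5 or more, 6 with equal weights 9 at 20 CPM and 2 at 100 CPM. Between genotypes, 51 genes were higher and 13 lower at 20 CPM, and 2 were lower at 100 CPM. Tendon matrix calls were 1 at 1 or more *Tnmd* UMI and 7 at 5 or more, and interferon calls were 14 at 20 CPM. The log2 ratio of *Hist1h2ap*, −1.26, became 0.13 at 5 or more *Tnmd* UMIs. The cause was not tested. With members ranked by *Tnmd* CPM and split into 3 classes of near equal size, whose median depth went from 21980 UMIs in the lowest to 10197 in the highest in the control and from 22121.5 to 9869 in the *Smo* cKO, an alternative added after the data were seen as was leaving out shared barcodes, the log2 ratios of the highest over the lowest class were 0.97 and 1.53 for *Scx* and 2.59 for *Fmod* in the *Smo* cKO, and without shared barcodes *Thbs4* in the *Smo* cKO had 1.89. Leaving out shared barcodes also moved 13 single gene ratios past their counting interval, none with a change of sign. Of members over other cells, these became 2.25 for *Thbs4*, 1.43 for *C1qtnf3*, 1.20 for *Prg4*, 1.42 for *Col11a1*, 1.35 for *Fibin*, 1.14 for *Ogn* (0.95 in the *Smo* cKO), 1.02 for *Angptl1*, 1.42 for *Abi3bp* and 0.97 for *Ptn* in the control. Between genotypes, they became 1.23 for *Ly6a*, −0.55 for *Spp1* and 0.18 for *Thbs4*. Over these alternatives single gene ratios stayed within the counting interval in 311 values and moved in 160, the 13 included, with 52 of the moves at 1 or more *Tnmd* UMI, 57 at 5 or more and 35 with cells weighted equally. Depth limits *Mkx*, *Kera*, *Gli1* and the reporter, which had few UMIs.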
